A study of Mus musculus with 7 samples.

Results

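The transcriptome of wild type mouse cortical neurons at E16.5 (E for embryonic day) was described from 3 polyA RNA-seq libraries, out of 7 in the series. The 3 libraries were chosen by their genotype label alone, and all 26286 genes of the deposited count table were read in them. They are labelled as brain cortical neurons of male C57BL/6 mice, and the design text gives each as a different mouse. No transgene, Cre driver or treatment is named for them. How the neurons were separated from other cells, or whether they were cultured, was not given in the sources used here. The other 4 libraries come from mutants of KAT7, a histone acetyltransferase, and entered only a check of the genotype label. That check found 869, 848 and 854 Kat7 counts in wild type replicates 1, 2 and 3, against 3, 4, 3 and 10 counts in the mutants.

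At this age the mouse cortex is still under construction. Radial glia divide next to the ventricle and give rise to intermediate progenitors and then to excitatory neurons, which settle first in the deep layers and later in the upper layers. Inhibitory interneurons migrate in from the ventral telencephalon. Young neurons extend axons on growing microtubules and actin filaments and begin to make synaptic proteins, while most astrocytes and oligodendrocytes appear later.

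Total counts were 8354636, 8731720 and 8813060 in replicates 1, 2 and 3. Counts were turned into TPM, the usual transcript level that divides each count by gene length and scales each library to the same total of 1000000, so that levels of different genes can be set side by side. A gene was called detected at 1 TPM or more in each of the 3 libraries. Identifiers with no gene symbol held between 10.2% and 10.5% of the TPM of a library, although they held at most 3.24% of its counts. Values below are means over the 3 libraries with their SD (n = 3) unless a library is named.

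Of the 26286 genes, 13634 (51.9%) were detected, and of the 20829 protein-coding genes, 12006 (57.6%). No library gave a count for 7300 genes. A further 4699 genes averaged under 1 TPM, 4453 lay from 1 to 10 TPM, 7505 from 10 to 100 TPM, 2262 from 100 to 1000 TPM and 67 at 1000 TPM or more. A mean of 10 TPM was reached by 37.4% of all genes and a mean of 100 TPM by 8.86%. The median was 1.99 TPM over all genes, 4.27 TPM over protein-coding genes and 26.7 TPM over detected genes. The 100 most abundant genes of a library held 19.9% to 20.4% of its TPM, and the 1000 most abundant held 50.4% to 50.6%.

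The labelled cell type was checked against general neuronal markers. All 29 genes of the pan-neuronal list were detected, beside 51.9% of all genes, and 28 of them exceeded 100 TPM, beside 8.86%. Their median was 834 TPM. Tubb3, the neuronal beta tubulin, stood at 3050, 3097 and 3226 TPM in replicates 1, 2 and 3 and was the most abundant of the list. Dcx, a microtubule-associated protein of migrating neurons, stood at 828, 937 and 870 TPM. Rbfox3, which encodes the NeuN antigen of maturing neurons, was the least abundant of the 29 at 80.7, 77.1 and 78.3 TPM. All 3 libraries therefore carried the whole list, with the lowest member still above the median of detected genes. Among the others were Stmn2, a tubulin-binding protein of growing axons, at 1924 ± 53.8 TPM, Map2, a dendritic microtubule protein, at 958 ± 40.7 TPM, and Gap43, a growth cone protein, at 894 ± 33.4 TPM.

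The excitatory cortical list was present in full as well. All 14 members were detected, 12 of them above 100 TPM, with a median of 455 TPM. Neurod6, a helix-loop-helix factor of postmitotic cortical excitatory neurons, stood at 1549, 1679 and 1790 TPM. Neurod2, its relative, stood at 839, 844 and 915 TPM. For both genes replicate 3 was the highest library and replicate 1 the lowest. Emx1, a factor of the dorsal telencephalon, reached 121 ± 2.75 TPM. The lowest of the 14 were the vesicular glutamate transporters, which load glutamate into synaptic vesicles: Slc17a7 (VGLUT1) at 46.6 ± 2.05 TPM and Slc17a6 (VGLUT2) at 34.9 ± 3.17 TPM. Their order reversed in CPM, where the log2 ratio of Slc17a6 to Slc17a7 was 0.13, against -0.42 in TPM. In bulk RNA of this kind, fewer cells of a type and less RNA per cell cannot be told apart, and this holds for every marker list below.

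Markers of deep and upper cortical layers were found together. All 16 deep layer genes and all 14 upper layer genes were detected, with medians of 67.6 and 99.0 TPM. Tbr1, a factor of layer VI and early-born neurons, stood at 215, 234 and 255 TPM. Bcl11b (CTIP2), a factor of subcerebral projection neurons, stood at 104, 105 and 121 TPM, and Fezf2, which acts upstream of it, at 185, 189 and 231 TPM. In each of these, replicate 3 was the highest library. Nfib, a nuclear factor I family member, was the most abundant deep layer gene at 699 ± 40.0 TPM, and the POU factor Pou3f3, of the upper layer list, was at 395 ± 10.2 TPM. Foxp2, of layer VI, was the least abundant of both lists at 3.35 ± 0.869 TPM, and the layer IV factor Rorb was at 7.30 ± 0.943 TPM.

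Markers of the earliest-born neurons were lower. Among 9 subplate genes 6 were detected, led by Nr4a2, an orphan nuclear receptor, at 49.8, 47.5 and 30.6 TPM, with replicate 3 below the other libraries. Cplx3, a complexin used as a subplate marker, had 4, 4 and 2 counts and was under 1 TPM. Among 9 Cajal-Retzius genes 7 were detected. Reln, the secreted protein that guides migrating neurons, stood at 53.3, 44.5 and 49.4 TPM, and Trp73 at 6.83 ± 0.853 TPM, while Nhlh2 had no count in any library.

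Progenitor and cell cycle lists had lower medians than the pan-neuronal, excitatory and layer lists. Of 13 intermediate progenitor genes 12 were detected, with a median of 14.5 TPM, and of 20 radial glia genes 17 were, with a median of 13.8 TPM. Insm1, a zinc finger factor of newly delaminated progenitors, led the first list at 107 ± 4.04 TPM. Eomes (TBR2), the defining factor of intermediate progenitors, stood at 33.3, 42.5 and 54.9 TPM, highest in replicate 3 and lowest in replicate 1. Vim, the intermediate filament of radial glia and of many other dividing cells, led the second at 217 ± 7.49 TPM, followed by Ptprz1 at 156 ± 2.61 TPM and the fatty acid binding protein Fabp7 at 127 ± 16.6 TPM. Pax6, a radial glia factor, was at 16.6 ± 0.708 TPM, and Sox2, another, had 11, 12 and 10 counts, or 1.42 ± 0.143 TPM. All 22 cell cycle genes were detected with a median of 10.6 TPM, among them Pcna, the replication clamp, at 76.0 ± 3.29 TPM and Mki67, the Ki-67 antigen, at 14.4 ± 0.470 TPM.

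Genes of interneurons and their ventral precursors were detected for 18 of 21 members, with a median of 19.8 TPM. Sst, the neuropeptide somatostatin, stood at 636, 355 and 330 TPM, so that replicate 1 was 1.93 times replicate 3. Lhx6, a factor of interneurons from the medial ganglionic eminence, stood at 70.3, 56.1 and 49.2 TPM. Gad1, which makes GABA from glutamate, stood at 51.4, 34.1 and 26.7 TPM. Replicate 1 was the highest library in all 3 genes and replicate 3 the lowest. Lhx8, of ventral cholinergic lineages, had no count, and Nkx2-1, of medial ganglionic eminence precursors, had 6, 2 and 3 counts.

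Most glial and vascular markers were low, whereas globin genes were not. Of 13 astrocyte genes 10 were detected, with Sparcl1 the most abundant at 63.1 ± 2.50 TPM. The defining astrocyte genes Gfap and Aldh1l1 stood at 5.07 ± 1.74 and 1.41 ± 0.332 TPM, Aqp4 at 0.582 ± 0.249 TPM, and Gjb6 had no count. Of 13 oligodendrocyte lineage genes 8 were detected, with a median of 1.40 TPM. Sox10 had 3, 4 and 3 counts, while Olig1, Olig2 and Pdgfra were detected at 2.63 ± 0.177, 1.96 ± 0.485 and 1.39 ± 0.504 TPM. The myelin gene Mog stood at 20.4, 22.0 and 15.8 TPM. Of 16 microglia genes 11 were detected, with a median of 3.54 TPM. Fcer1g, an immune receptor chain, led at 31.2 ± 2.25 TPM, whereas Csf1r, the receptor on which microglia depend, was at 2.38 ± 0.639 TPM and P2ry12 had 0, 2 and 0 counts. Of 12 endothelial genes 5 were detected. The defining genes Cldn5, Tek and Tie1 had at most 2 counts in any library, whereas Mfsd2a, a lipid transporter of brain endothelium, stood at 28.8 ± 2.01 TPM, Ramp2 at 8.62 ± 1.99 TPM and Slco1c1 at 5.98 ± 0.541 TPM. Of 9 pericyte and smooth muscle genes 4 were detected, of 10 meningeal fibroblast genes 4 and of 8 choroid plexus genes 2. The pericyte receptor Pdgfrb was at 2.70 ± 0.287 TPM and Col1a1, the fibroblast collagen, at 0.915 ± 0.349 TPM. The alpha globin gene Hba-a2 of red cells averaged 128 TPM, and the 10 listed erythroid genes summed to 325 TPM on average.

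Markers of other brain regions and of other organs served as the low end of the scale. None of 24 genes for midbrain, hindbrain, cerebellum or monoamine neurons was detected, and 10 of them had no count in any library. Otx2 was the highest of the 24, with 2, 5 and 14 counts. Of 22 genes for liver, pancreas, muscle, skin and other organs 2 were detected: Acta1, skeletal muscle actin, at 11.8 ± 0.753 TPM and Gcg, the glucagon precursor, at 2.51 ± 0.383 TPM. Alb, serum albumin, had 1, 0 and 0 counts. For a gene without a count in a library, the floor of 3 counts allows up to 0.359 CPM (counts scaled to the library total, not divided by length) in replicate 1, 0.344 in replicate 2 and 0.340 in replicate 3, which covers counting error only.

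The 6 named coding genes with the highest TPM were tubulins, actin and an actin regulator. Tuba1a, the alpha tubulin of young neurons, was the highest at 8524, 8574 and 9045 TPM. In CPM, which are not divided by length, Map1b, a long microtubule protein gene, was above it at 5082 against 5067 CPM, and 15 of the 30 identifiers with the highest TPM were also among the 30 highest in CPM. Of the 50-base words of Tuba1a, 73.2% also occur in transcripts of other genes, so the Tuba1a counts are uncertain. Cfl1 (cofilin), which severs actin filaments, came next at 4217, 4205 and 4218 TPM, a coefficient of variation (CV) of 0.171%. Actb, cytoplasmic actin, followed at 3552 ± 108 TPM, and the beta tubulins Tubb2b, Tubb3 and Tubb2a at 3220 ± 17.0, 3124 ± 91.1 and 3001 ± 49.5 TPM. Tubb2b and Tubb2a are close copies, sharing 39.3% and 49.5% of their words with other genes, and their ratio was 1.07 ± 0.023. Hsp90ab1, a cytosolic chaperone, came next at 2614 ± 14.03 TPM, then Cd24a, a surface glycoprotein, at 2542 ± 44.3 TPM and Ywhae, a 14-3-3 adaptor, at 2412 ± 45.8 TPM. Most members of the cytoskeletal lists were present, 12 of 14 tubulin genes and 10 of 11 actin-related genes. Of the 30 identifiers with the highest TPM, 15 were named coding genes, 13 had no symbol and 2 were pseudogenes, and together they held 12.3% of the TPM.

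Sequences before transcription starts were compared across the level classes, in windows of 300 bases (250 before to 50 after the start) of 13984 protein-coding genes with 1 RefSeq promoter entry in GRCm38.p6. CpG content followed level. The median ratio of observed to expected CpG was 0.156 for genes with no count, 0.348 under 1 TPM, 0.663 from 1 to 10 TPM, 0.809 from 10 to 100 TPM, 0.843 from 100 to 1000 TPM and 0.817 over the 25 promoters at 1000 TPM or more. The share of promoters with a ratio over 0.6 went from 5.87% for genes with no count to 92.0% at 1000 TPM or more. The GC box, searched as GGGCGG or its complement, was found in 10.3% of promoters of genes with no count and 71.9% of those from 100 to 1000 TPM, beside 47.0% of all. The motif TATAAA, searched on the coding strand from 45 to 15 bases before the start, was found in 7.35% of promoters without a count and 0.619% of those from 10 to 100 TPM, beside 3.36% of all. The share was 1.48% from 100 to 1000 TPM and 4.00% (1 of 25) at 1000 TPM or more. The motif CCAAT or its complement varied less, from 36.7% to 41.3%. These are matches of letters and not shown sites.

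A few promoters are printed to show this range and an exception to it. They are the 150 bases before the start from RefSeq on GRCm38.p6, 5′ to 3′ on the coding strand, with CpG pairs and any TATAAA in capitals. The CpG ratios given with them were computed over the longer promoter windows described above, not over the printed bases alone. Cfl1 (chr19:5490305-5490454, plus strand) had a CpG ratio of 1.00 and a level of 4213 TPM, and Vim (chr2:13574161-13574310, plus strand) is a TATAAA promoter with a ratio of 0.421 at 217 TPM. Alb (chr5:90460720-90460869, plus strand) had a ratio of 0.272 and 0.0532 TPM, and Neurod6 (chr6:55681264-55681413, minus strand) had a ratio of 0.192 at 1673 TPM.
Cfl1: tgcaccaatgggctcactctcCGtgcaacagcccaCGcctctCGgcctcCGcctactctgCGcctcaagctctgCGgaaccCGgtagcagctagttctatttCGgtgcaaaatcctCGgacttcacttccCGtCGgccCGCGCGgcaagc
Vim: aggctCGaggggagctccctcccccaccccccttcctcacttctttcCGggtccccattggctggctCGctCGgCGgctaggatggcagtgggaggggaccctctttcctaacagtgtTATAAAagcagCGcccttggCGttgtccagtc
Alb: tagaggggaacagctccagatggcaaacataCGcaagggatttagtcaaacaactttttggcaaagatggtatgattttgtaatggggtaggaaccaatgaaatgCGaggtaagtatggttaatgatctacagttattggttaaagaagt
Neurod6: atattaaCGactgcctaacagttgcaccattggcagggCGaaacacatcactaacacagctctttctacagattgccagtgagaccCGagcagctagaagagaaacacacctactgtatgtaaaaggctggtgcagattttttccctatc
The Cfl1 stretch holds 14 CpG pairs and the Alb stretch 2. Neurod6 holds 3, close to Alb, although its TPM was among the highest of the neuronal genes.

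Receptors for glutamate, the main excitatory transmitter, were detected for 21 of 26 subunits. The kainate subunit Grik5 was the most abundant at 181, 168 and 173 TPM. Of the AMPA subunits, Gria1 stood at 74.6, 65.8 and 59.0 TPM and Gria2, which sets calcium permeability, at 20.02, 18.1 and 14.7 TPM. Replicate 1 was highest and replicate 3 lowest for both, and Gria1 was 3.79 ± 0.199 times Gria2. Of the NMDA subunits, the obligatory Grin1 was at 27.4 ± 1.89 TPM and Grin2b, the subunit of the immature receptor, at 18.6, 16.8 and 15.97 TPM. Grin2a, which joins the receptor as the cortex matures, stood at 1.23, 0.699 and 0.962 TPM from 17, 10 and 14 counts. The ratio of Grin2b to Grin2a was 15.2, 24.1 and 16.6 in the 3 libraries. Among the metabotropic receptors, Grm2 was highest at 27.6 ± 3.88 TPM and Grm6, of retinal bipolar cells, had 1 count in all.

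Receptors for GABA and glycine were detected for 13 of 19 subunits. Glra2, the glycine receptor alpha subunit of immature neurons, stood at 65.5, 76.8 and 79.3 TPM, while Glra1, the spinal form, and Glra3 had no count. Of the GABA-A alpha subunits, Gabra2 was at 55.9 ± 9.34 TPM, Gabra5 at 35.9 ± 6.505 TPM and Gabra3 at 17.7 ± 0.989 TPM. Gabra6, of cerebellar granule cells, had no count.

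**Figure D1:**
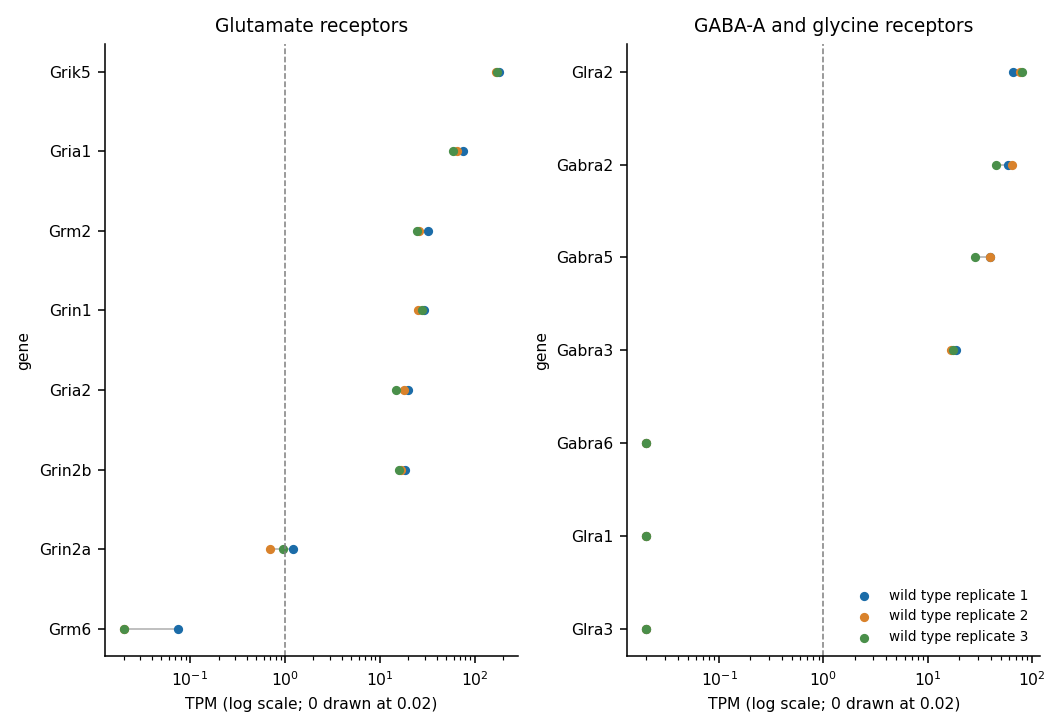
TPM of 8 glutamate receptor subunits (left) and 7 GABA-A or glycine receptor subunits (right) in the 3 wild type libraries, on a log axis with 0 drawn at 0.02 and the 1 TPM level dashed. Most subunits differ little between libraries beside the range across subunits, from Grm6 with 1 count to Grik5 at 174 TPM on the left and from no count to Glra2 at 73.9 TPM on the right.

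Ion channels and transporters were set out by pairs of related genes whose balance shifts as neurons mature. Slc12a2 (NKCC1), which brings chloride into the cell, stood at 19.8, 21.6 and 17.7 TPM, and Slc12a5 (KCC2), which removes it, at 3.95, 3.30 and 1.80 TPM. Their ratio was 5.02, 6.55 and 9.82 in replicates 1, 2 and 3, above 1 in each library but of different size. Scn3a, a sodium channel of the embryonic brain, was 3.41 ± 0.390 times Scn1a. Among sodium channel genes the beta subunit Scn3b was most abundant at 139 ± 1.23 TPM, and Scn10a, of sensory ganglia, had 1 count in all. Of calcium channel genes, 15 of 17 were detected, led by the beta subunit Cacnb3 at 263 ± 12.6 TPM, and the muscle gene Cacna1s had 1 count in all. Of potassium channel genes, 18 of 20 were detected, led by the leak channel Kcnk2 at 55.6 ± 3.37 TPM. Kcna2, an axonal channel, was listed at 1, 2 and 1 counts.

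Release machinery was present across most of its parts. Of 26 presynaptic genes 24 were detected, with a median of 71.8 TPM. The vesicle SNARE Vamp2 stood at 565, 559 and 539 TPM, 199.99 ± 12.4 times Vamp1. Rab3a, a vesicle GTPase, was at 497 ± 9.16 TPM. Syt4, a synaptotagmin of growing neurons, was at 472 ± 26.4 TPM, or 3.00 ± 0.367 times Syt1, the calcium sensor of fast release. Pclo, a scaffold of the active zone, stood at 17.5 ± 4.16 TPM from 1498, 1155 and 997 counts, highest in replicate 1. Sv2c, a vesicle glycoprotein, was lowest at 1.12 ± 0.178 TPM.

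On the postsynaptic side 21 of 22 genes were detected, with a median of 60.6 TPM. Camk2b led at 425, 427 and 411 TPM, and Camk2a, the kinase subunit that prevails in the adult forebrain, stood at 10.2, 7.65 and 6.71 TPM. The ratio was 52.9 ± 10.2, above 40 in each library. Dlg4 (PSD-95), the scaffold of mature excitatory synapses, stood at 354, 329 and 353 TPM, 5.02 ± 0.451 times Dlg3 (SAP102), a scaffold of young synapses. Among the neurofilament genes, Nefm was 95.4 ± 6.45 times Nefh, the subunit that appears late in axon maturation.

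**Figure D2:**
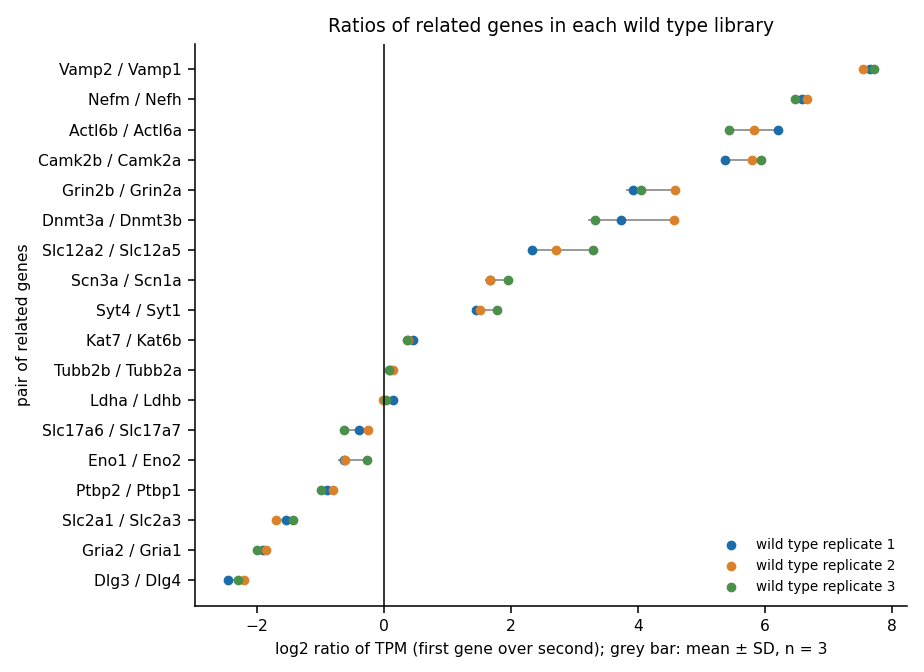
Log2 ratio of TPM for 18 pairs of related genes (rows) in each wild type library (coloured points), with the mean ± SD over the 3 libraries as a grey bar and equal levels at 0. The pairs run from Vamp2 over Vamp1 at the top to Dlg3 over Dlg4 at the bottom, and of the 18 pairs only Ldha over Ldhb has libraries on both sides of 0.

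Axon guidance receptors had a higher median than their ligands. Of 25 receptors 23 were detected, 12 of them above 100 TPM, with a median of 90.2 TPM. Plxna2, a semaphorin receptor, led at 245 ± 5.68 TPM. Nrp1, a neuropilin that pairs with plexins, was at 211 ± 10.7 TPM, Robo1, a Slit receptor, at 188 ± 16.2 TPM, and Dcc, a netrin receptor, at 80.3 ± 4.07 TPM. Robo3, known from commissural axons, was at 1.11 ± 0.346 TPM. Of 24 ligands 20 were detected, with a lower median of 18.3 TPM. Sema3c was highest at 280, 330 and 287 TPM and Efnb2, an ephrin, next at 264, 294 and 310 TPM, while Ntn1, the ligand of Dcc, stood at 1.03 ± 0.289 TPM.

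All 24 RNA-binding proteins of the neuronal list were detected, with a median of 142 TPM. Elavl3 (HuC) led at 834 ± 9.24 TPM, and Celf2 and Khdrbs1 followed at 521 ± 3.74 and 505 ± 10.4 TPM. Ptbp1, the splicing repressor that neurons switch off, was at 73.5 ± 3.78 TPM, 1.87 ± 0.129 times its neuronal relative Ptbp2. Nova2, of the cortex, was at 195 ± 8.69 TPM and Nova1, of ventral and caudal regions, at 8.59 ± 0.212 TPM.

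Most chromatin regulators were detected, over a wide range of levels. Of the MYST acetyltransferases, which include KAT7, Kat6a was at 102 ± 1.06 TPM, Kat5 at 94.2 ± 6.54 TPM, Kat7 at 87.2, 82.3 and 81.5 TPM, Kat6b at 63.4 ± 0.118 TPM and Kat8 at 46.1 ± 3.45 TPM. Kat7 was 1.32 ± 0.050 times Kat6b in TPM, but below it in CPM, with a log2 ratio of -0.69 against 0.40. Among their scaffold and reader partners, Brd1 was at 64.98 ± 3.33 TPM, Brpf1 at 41.3 ± 2.91 TPM and Meaf6 at 125 ± 7.53 TPM, and Jade1 and Jade2 were under 1 TPM at 0.696 ± 0.252 and 0.870 ± 0.264 TPM. Of the chromatin remodellers, all 20 were detected, led by Chd3 at 481 ± 8.81 TPM. Actl6b (BAF53b), the neuronal subunit of the BAF complex, was at 244 ± 0.6005 TPM and Actl6a (BAF53a), its progenitor form, at 3.31, 4.32 and 5.67 TPM, a ratio of 57.7 ± 15.3. Hdac2 was the most abundant deacetylase at 648 ± 14.4 TPM beside Hdac1 at 15.5 ± 0.530 TPM, although 58.8% of the Hdac1 words occur in other genes. Dnmt3a, which methylates DNA in neurons, was at 27.2 ± 2.01 TPM, Dnmt3b at 1.96 ± 0.701 TPM, and Dnmt3l had no count.

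Signalling genes showed a similar unevenness within families. Of 18 neuropeptide and granin genes 12 were detected, from Scg3, a secretory granule protein, at 463 ± 15.4 TPM to Vip, of a late interneuron class, with no count. Of 12 neurotrophins and receptors 8 were detected. Ntrk3, the receptor of neurotrophin 3, stood at 62.2, 56.3 and 51.0 TPM and Ntrk2, the BDNF receptor, at 25.1 ± 1.67 TPM. Bdnf itself was at 3.25 ± 1.01 TPM. Of 19 Notch pathway genes 14 were detected, led by Hes6, an inhibitor of Hes1, at 97.8 ± 5.40 TPM. Hes1, the target of Notch in progenitors, had 2, 8 and 15 counts, and Notch1 was at 9.22 ± 0.490 TPM.

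Metabolic and stress genes were broadly present. All 19 glycolysis genes were detected, with a median of 62.5 TPM. Pkm, pyruvate kinase, led at 279 ± 9.64 TPM, and Slc2a3, the neuronal glucose transporter, was at 30.2 ± 2.01 TPM beside Slc2a1, the form of vessels and glia, at 10.3 ± 1.01 TPM. Of 18 stress response genes 15 were detected. Hspa5 (BiP), the chaperone of the endoplasmic reticulum, was at 229 ± 6.10 TPM and Atf4 at 299 ± 6.38 TPM, while the heat shock genes Hspa1a and Hspa1b, near-identical copies, were at 1.06 ± 0.0923 and 1.35 ± 0.267 TPM.

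Spread between the 3 animals was small for most genes. The common biological coefficient of variation, which is the spread net of counting noise, was 4.91% in edgeR. Pearson correlations of log2 TPM between libraries, across genes, which are not independent, were 0.991 to 0.993. Counts were then tested for more spread than counting noise, with a chi-square test across the 3 libraries and Benjamini-Hochberg adjustment, and 1066 of 13567 genes tested (7.86%) passed at an adjusted p under 0.05. The share rose with level, which gives the test more counts to work with: 3.02% from 1 to 10 TPM, 6.57% from 10 to 100 TPM, 18.9% from 100 to 1000 TPM and 55.2% at 1000 TPM or more. From 100 to 1000 TPM the median CV of CPM was 3.88%, beside 2.71% for the median inverse square root of the mean count. From 1 to 10 TPM the same values were 18.5% and 19.6%. The second value is a guide to counting noise and not the median CV that noise would give over 3 libraries. Of the genes from 100 to 1000 TPM, 99.5% stayed within 1.5-fold in TPM. Of the 603 distinct list genes tested, 160 passed, a larger share than among all tested genes. Of the 1066 genes, 188 differed by 1.5-fold or more between libraries and 37 by 3-fold or more. The same test on 2 libraries passed 434 genes without replicate 1, 837 without replicate 2 and 399 without replicate 3.

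**Figure D3:**
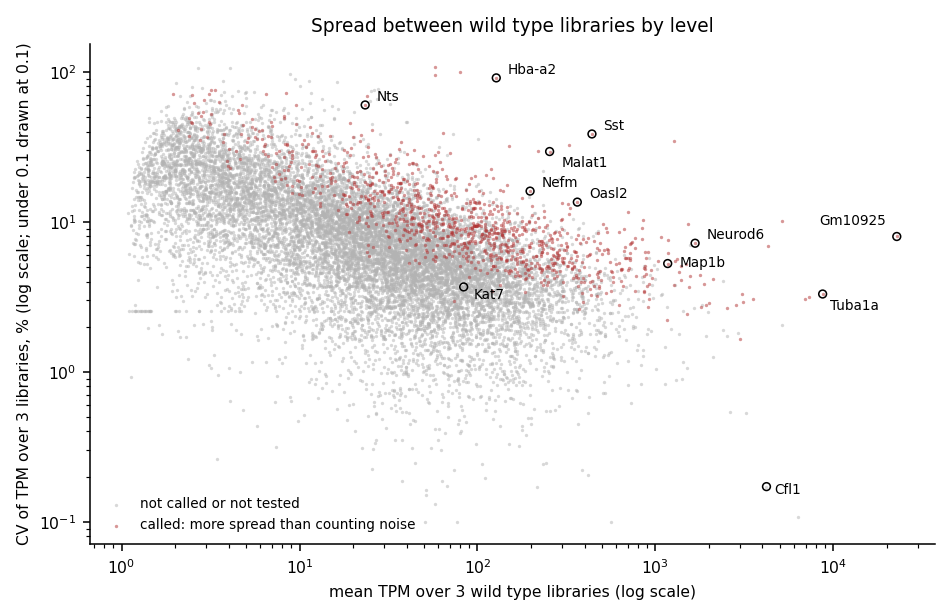
CV of TPM over the 3 wild type libraries against mean TPM for detected genes (both axes log, CV under 0.1% drawn at 0.1), with genes that passed the chi-square test in red and 12 named genes circled. The CV falls with level, and Hba-a2, Sst and Malat1 lie above genes of like level while Cfl1, with a CV of 0.171%, lies far below. The counts of Cfl1 had a chi-square per degree of freedom of 0.793, where noise averages 1.

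Some genes had almost the same level in all 3 libraries. Among genes at 50 TPM or more, the lowest CV was that of Atp6v1c1, a subunit of the proton pump of lysosomes and vesicles, at 76.3, 76.3 and 76.3 TPM, followed by the ribosomal protein gene Rps3 at 564, 564 and 564 TPM. Kat6b, at 63.3, 63.3 and 63.5 TPM, and Cfl1 were also among the 10 with the lowest CV. Atp6v1c1 and Kat6b lie below the spread that counting noise alone gives (chi-square per degree of freedom 0.0131 and 0.0552, where noise averages 1). For the counts of Cfl1 it was 0.793, close to that average. The order is therefore no measure of steadiness. None of the 17 tested MYST genes and partners, 17 Notch pathway genes, 12 microglia genes or 8 oligodendrocyte genes passed the chi-square test, beside 7.86% of all. At an unadjusted p under 0.05 the counts were 1, 1, 0 and 2 in that order. With 8 to 17 genes tested in a list, few passes would follow at the share of 7.86%, so 0 does not set these lists apart. From 1 to 10 TPM the share was lower still, at 3.02%. None of the 6 endothelial, 6 pericyte and smooth muscle or 5 meningeal fibroblast genes tested passed either.

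Blood genes differed several-fold between libraries. Hba-a2, an alpha globin, stood at 262, 68.9 and 52.3 TPM, and replicate 1 was 5.002 times replicate 3 (adjusted p = 3.28e-80, chi-square test). Hbb-bs, a beta globin, stood at 121, 32.7 and 19.4 TPM. Globin genes are near-identical copies that may share reads, and 87.1% of Hba-a2 words and 65.5% of Hbb-bs words occur in another gene. All 5 erythroid genes tested passed with replicate 1 highest, beside 7.86% of all tested genes that passed. Alas2, the haem synthesis enzyme of red cells, was among them at 4.78, 1.75 and 0.627 TPM. The summed TPM of the 10 listed erythroid genes was 689, 174 and 114. Without replicate 1, 0 of the 4 erythroid genes then tested passed, against 5 of 5 without replicate 2 and 4 of 5 without replicate 3.

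Interneuron genes were also highest in replicate 1. Of 18 tested, 8 passed, beside 7.86% of all tested genes and 160 of the 603 list genes tested. Of the 18, 16 were highest in replicate 1 and none in replicate 3, beside 34.1% of all tested genes highest in replicate 1. Sst had an adjusted p of 2.96e-52 and Gad1 of 1.46e-17 in the chi-square test, and Maf, Lhx6, Gad2, Dlx1 and Slc32a1 were also among those that passed. Summed TPM of the list was 1146, 773 and 708. Without replicate 1, 3 of the 18 passed, without replicate 2, 8, and without replicate 3, 4. Npy, another interneuron peptide, stood at 55.4, 49.0 and 49.3 TPM and did not pass. The summed erythroid and interneuron levels thus had the same highest library, and the part of either in the other was not tested.

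Several activity-dependent genes were highest in replicate 1 too. Of 13 immediate early genes tested, 6 passed, beside 7.86% of all tested genes and 160 of the 603 list genes tested. Of the 13, 9 were highest in replicate 1, beside 34.1% of all tested genes. Summed TPM of the 16 listed genes was 520, 464 and 481, lowest in replicate 2. With replicate 1 or replicate 3 left out, 3 passed, and 5 passed without replicate 2. Npas4, a factor induced by neuronal calcium, stood at 15.7, 8.66 and 4.35 TPM (adjusted p = 5.66e-14, chi-square test). Nr4a1, a nuclear receptor, stood at 28.7, 18.1 and 11.3 TPM, and Fos at 16.4, 11.7 and 7.11 TPM. Npas4, Nr4a1 and Fos were each highest in replicate 1 and lowest in replicate 3. Jund, the most abundant of the list, stood at 174, 161 and 183 TPM and was highest in replicate 3. Of the 6 that passed, replicate 1 was farthest from the others for 3, replicate 2 for 1 and replicate 3 for 2. The lean to replicate 1 was not particular to immediate early genes. Of 14 stress response genes tested, 10 were highest there, as were 16 of 26 presynaptic and 15 of 24 glutamate receptor genes. Of the 14 excitatory cortical genes, 0 were.

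Deep layer and interferon genes had the other extreme. Of 16 deep layer genes, 9 passed, beside 7.86% of all tested genes and 160 of the 603 list genes tested. Of the 16, 12 were highest in replicate 3, beside 32.3% of all tested genes. Without replicate 3, 1 of the 16 passed, against 9 without replicate 1 and 8 without replicate 2. Sox5, a factor of corticofugal neurons, had the widest CV of those that passed, at 65.1, 68.1 and 91.6 TPM, a CV of 19.4%. Fezf2, Ldb2, Tbr1, Bcl11b, Tle4, Nfib and Nfia were highest in replicate 3 as well, and Tafa2, a secreted protein, was lowest there at 46.1 TPM against 56.0 and 65.05. The lean to replicate 3 was not particular to deep layer genes. Of the 14 excitatory cortical genes, 9 passed, 8 were highest in replicate 3, 6 in replicate 2 and 0 in replicate 1. Of 12 tubulin genes tested, 7 were highest in replicate 3, as were 7 of 10 actin-related genes, and 6 passed in each list. Of 14 upper layer genes, 5 were highest there. Of 17 interferon response genes tested, 7 passed, beside the same 7.86% of all and 160 of 603 list genes. Of the 17, 13 were highest in replicate 3, beside 32.3% of all. Oasl2, an antiviral protein, stood at 311, 374 and 408 TPM (adjusted p = 1.69e-25, chi-square test), and Ifit1 at 15.7, 27.0 and 30.2 TPM. Ifitm3, a membrane protein that blocks viral entry, stood at 42.8, 59.8 and 78.0 TPM, while Rsad2 did not pass at 4.13, 4.25 and 3.69 TPM. Summed TPM of the interferon list was 1099, 1249 and 1426. Without replicate 3, 2 of the 17 passed, without replicate 1, 3, and without replicate 2, 8.

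**Figure D4:**
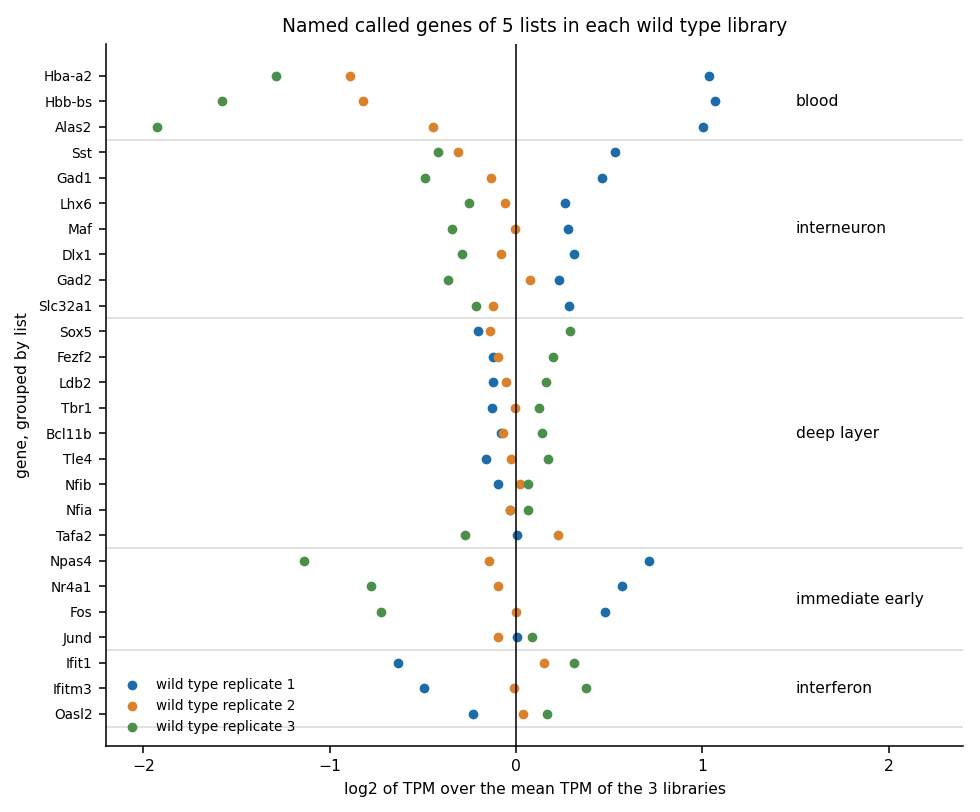
Log2 of TPM in each wild type library over the mean of the 3, for 26 named genes of 5 lists that passed the chi-square test. Not all that passed are drawn: 5 erythroid, 8 interneuron, 9 deep layer, 6 immediate early and 7 interferon genes passed. Replicate 1 was the highest library for the 3 blood, the 7 interneuron and 3 of the 4 immediate early genes drawn, and replicate 3 was the highest for 8 of the 9 deep layer genes and for the 3 interferon genes.

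The pan-neuronal genes that passed differed little in size between libraries. Of the 29 pan-neuronal genes, 17 passed (58.6%), beside 18.9% of all genes from 100 to 1000 TPM and 55.2% of those at 1000 TPM or more. Without replicate 1, 11 passed, without replicate 2, 13, and without replicate 3, 8. Map1b, a microtubule protein, passed with an adjusted p of 1.74e-52 in the chi-square test at 1226, 1189 and 1105 TPM, a ratio of 1.11 between its extreme libraries. Dcx passed with a ratio of 1.13 and replicate 2 highest. The widest of the list was Nefm at 228, 200 and 165 TPM, a ratio of 1.38. It was highest in replicate 1 and lowest in replicate 3, as were Pclo and Gria2 above.

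Some other genes also set a library apart. Malat1, a nuclear noncoding RNA, stood at 336, 238 and 189 TPM with the smallest adjusted p of the listed genes, 6.92e-212 in the chi-square test. Atg3, an autophagy conjugation enzyme, stood at 77.7, 80.3 and 35.3 TPM, low in replicate 3. Nts, the peptide neurotensin, was low there too, at 33.7, 29.1 and 7.36 TPM. Wnt7b, a secreted Wnt ligand, stood at 90.6, 109 and 136 TPM, highest in replicate 3. Ttr, the transthyretin made by the choroid plexus, had 3, 6 and 74 counts, while Kl, another choroid plexus gene, had 0, 1 and 2. Over all 1066 genes that passed, the library farthest from the other libraries was replicate 3 for 445, replicate 1 for 418 and replicate 2 for 203.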

How the data were processed

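The 3 wild type libraries and the 4 KAT7 mutant libraries have 1 column each in the table the authors deposited, which holds raw read counts by Entrez identifier beside a gene length. Per the submitters' processing notes, featureCounts did the counting and the build was mm9. Which aligner, annotation and strand option were used is not given in the sources used here. Overlapping or near-identical genes may therefore share reads. All sample columns matched a sample description, and 0 columns were left unmapped.

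Symbols and biotypes came from an NCBI gene table of GRCm38.p6, in which 24176 of the 26286 identifiers (92.0%) had a symbol. That assembly differs from mm9, so its coordinates were used only for the promoter windows, which are not positions in the authors' files. TPM were computed from the counts and the deposited gene length, over all identifiers. A gene was detected at 1 TPM or more in each library. Spread beyond counting noise was tested on counts with a chi-square test with 2 degrees of freedom against library totals, for genes with a mean of at least 10 counts, and p-values were adjusted by the Benjamini-Hochberg method and called under 0.05. It compares libraries of different animals, so a call says that the 3 libraries differ, not why. The method was tested on simulated data. The biological coefficient of variation came from edgeR version 4.0.16 in R version 4.3.3, with TMM factors, and DESeq2 version 1.42.0 gave alternative size factors. Shared sequence was measured on the longest GENCODE transcript of a gene, as the share of its 50-base words (every 5 bases) also found in another gene. Genes were named if they were members of the 45 lists or 20 pairs, among the 30 most abundant, the 15 with the largest chi-square or the 10 with the smallest CV at 50 TPM or more. Genes with no symbol and predicted genes were not eligible under that rule. Some members of the lists are not reported here by name. The members and lists were chosen with earlier results of these data known. Intervals and floors cover counting error only, and a floor is 3 counts.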

Additional observations from a re-analysis of the deposited data

How the results depend on the processing

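The number of detected genes stayed within 1.5 times 13634 under every alternative run, from 10975 (at least 5 TPM) to 14472 (at least 0.5 TPM), and was 13789 to 13842 without 1 of the libraries. With pseudogenes and identifiers without a symbol left out of the TPM total, an alternative chosen after seeing the data, the TPM of the remaining genes rose by a factor of 1.20 and the pan-neuronal median from 834 to 1003 TPM. Genes with more spread than counting noise numbered 620 at an adjusted p under 0.01. They numbered 399 to 837 without 1 of the libraries, with 434 without replicate 1 and 399 without replicate 3, against 1066, and the test then has fewer samples. The counts by list with each library left out were an alternative chosen after seeing the data. At an unadjusted p under 0.05 there were 2743. Other scalings and filters gave 989 to 1094. The biological coefficient of variation was 4.23% to 5.95% without 1 of the libraries. In CPM, which are not divided by length, the log2 ratio of Slc17a6 to Slc17a7 became 0.13 (from -0.42 in TPM) and that of Kat7 to Kat6b became -0.69 (from 0.40), and 14 of the other 18 ratios moved by more than their SD with their direction kept. The counts of detected list members stayed the same or within 1.5 times in all 176 combinations of list and alternative. No paired analysis was possible because the comparison uses 1 group only. Genes under about 10 counts were not tested for spread, so differences in them were not detectable at this depth.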

Other observations

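Gene families described by name pattern, a choice made after values had been seen, ran from wholly to hardly detected. Of 88 ribosomal protein genes 81 were detected (median 192 TPM), of 51 genes of mitochondrial complex I 49 (108 TPM), and of 48 proteasome genes 43 (171 TPM). All 22 genes of the protocadherin gamma cluster, adhesion proteins by which neurons tell themselves from others, were detected with a median of 10.01 TPM. Of these 22, 7 shared over 50% of their 50-base words with other genes, as did 20 of the 88 ribosomal protein genes, so their counts are uncertain. Of 362 zinc finger genes named Zfp 325 were detected. None of 1107 olfactory receptor genes and none of 39 Hox genes was detected, and of 350 vomeronasal receptor genes 1 was. In these libraries labelled male, 4 of 4 Y-linked genes were detected and Xist had 1, 3 and 3 counts.

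The identifier with the most counts was the pseudogene Gm10925, at 24816, 22009 and 21416 TPM from 222457, 203990 and 201814 counts. All of its 50-base words (100%) occur in mt-Atp6, a gene of the mitochondrial genome, and the table holds 0 genes of the mitochondrial chromosome. It falls outside the naming rule, as do the genes that follow, and was chosen after its values were seen. The ribosomal RNA gene Rn28s1 stood at 451, 266 and 267 TPM and was highest in replicate 1, the library that was also highest for Malat1 and for globin genes. Their relation was not tested.

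Some genes known from neurons and progenitors were listed near 0. Tmsb4x, an actin-binding thymosin, had 1, 0 and 3 counts, while its relative Tmsb10 stood at 703 ± 33.5 TPM. Ddah1 had no count in any library, Camk2d had 5, 2 and 6, and Phgdh, of serine synthesis, had 1, 1 and 0. Gapdh, a glycolytic enzyme, was at 56.6 ± 1.33 TPM, below Ldha at 161 ± 1.98 TPM. Of its words 27.2% occur in other genes, and for Pgk1, at 9.76 ± 1.74 TPM, the share is 67.7%, but for Tmsb4x it is 0%. Over protein-coding genes with a transcript to compare, 62.8% of the 14926 sharing under 1% of their words were detected, against 23.1% of the 680 sharing 80% or more. These groups also differ in the families they hold. Of 350 vomeronasal receptor genes, 106 shared over 50% of their words and 318 had no count. Of 1107 olfactory receptor genes, 21 shared over 50% and 1076 had no count. The part of gene family and of shared words in the lower share was not tested. How reads with several matches were counted was not given in the sources used here.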
